A study of Mus musculus with 79 samples.

Results

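A set of 10 genes that mark T cells and natural killer (NK) cells was chosen by name, and 9 of the 10 had a row among the 31350 genes of the array table. The 9 were Cd3e, Cd3g, Cd4, Cd8a and Cd8b1, which belong to the T cell receptor complex and its coreceptors, and Gzma, Gzmb, Prf1 and Ncr1, which belong to cytotoxic granules and to NK cells. Rows were matched through gene symbols and their synonyms, and each of the 9 genes had 1 row. Klrb1c, which encodes the NK1.1 antigen, was not analysed here.

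T cells recognise antigen through a receptor that signals inside the cell by way of the CD3 chains. The coreceptor CD4 marks helper and regulatory T cells, and the CD8 alpha and beta chains mark most cytotoxic T cells. NK cells kill without an antigen-specific receptor and carry the activating receptor NKp46, which Ncr1 encodes. Both kinds of killer cell store perforin, which Prf1 encodes, and granzymes, which are proteases that enter the target cell. The lung holds many NK cells and T cells at rest, both in its tissue and in the blood of its capillaries.

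RNA was taken from the homogenized right lung of 79 mice, 1 Affymetrix moGene2.1 array per mouse, and all arrays were run on 1 plate. The mice were male and female C57BL/6J WT animals and their littermates carrying an Scnn1b transgene (βENaC mice), which overexpress the beta subunit of the epithelial sodium channel in the airway and are used as a model of chronic bronchitis. The transgene is known to be driven by a promoter of club cells, a secretory cell of the airway epithelium. At 5 to 7 weeks of age the mice breathed smoke of 6 unfiltered reference cigarettes per day, or room air (sham) in the same chamber, for 1 day or for 5 consecutive days. Lungs were frozen 4 hours after the last exposure. The 1-day study held 20 WT and 20 βENaC mice, 20 of them smoke-exposed and 20 sham-exposed. The 5-day study held 20 WT and 19 βENaC mice, 19 of them smoke-exposed and 20 sham-exposed. With sex, this made 16 groups of 4 to 6 different mice.

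All values below are log2 intensities, so a difference of 1 is a doubling. They ranged from 1.98 to 13.41 over the whole table, and the median of an array lay between 4.44 and 4.55. Scnn1b checked the genotype labels: its level was 11.52 to 11.88 in the 39 βENaC mice and 8.42 to 9.47 in the 40 WT mice, with no overlap. For 13 WT smoke mice 1 label field named the other genotype, and their Scnn1b level matched the title and the genotype field. As a check of the tissue, Sftpc, the surfactant gene of alveolar type II cells, lay between 12.51 and 12.78 on the log2 scale over the 79 mice, and the pan-leukocyte gene Ptprc between 8.87 and 10.75. In homogenized lung, fewer cells of a type and less RNA per cell cannot be told apart. The p-values measure the spread between the individual mice of a study.

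To show what precedes these genes in the genome, the 300 bases from 250 before to 50 after the transcription start (RefSeq, mouse build GRCm38.p6) are printed for the 4 granule and NK receptor genes, whose levels moved most closely together, and for Cd3e as a gene of the T cell receptor complex. The windows are Gzma at chr13:113100932-113101231, minus strand, Gzmb at chr14:56262285-56262584, minus strand, Prf1 at chr10:61297586-61297885, plus strand, Ncr1 at chr7:4337465-4337764, plus strand, and Cd3e at chr9:45009562-45009861, minus strand. All are written 5′ to 3′ on the strand of the gene. Capitals mark the letters TGTGGT or, on the other strand, ACCACA, the core that RUNX transcription factors bind.
Gzma: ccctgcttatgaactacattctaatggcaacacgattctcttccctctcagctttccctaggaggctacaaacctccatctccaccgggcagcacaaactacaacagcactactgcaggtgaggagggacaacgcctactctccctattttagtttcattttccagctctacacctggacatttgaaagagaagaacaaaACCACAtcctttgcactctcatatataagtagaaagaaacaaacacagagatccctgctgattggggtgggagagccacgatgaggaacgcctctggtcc
Gzmb: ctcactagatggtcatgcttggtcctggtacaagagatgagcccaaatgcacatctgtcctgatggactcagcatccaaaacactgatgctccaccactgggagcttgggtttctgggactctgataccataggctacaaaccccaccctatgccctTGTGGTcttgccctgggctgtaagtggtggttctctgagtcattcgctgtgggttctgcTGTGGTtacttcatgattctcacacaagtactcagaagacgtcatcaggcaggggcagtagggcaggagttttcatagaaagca
Prf1: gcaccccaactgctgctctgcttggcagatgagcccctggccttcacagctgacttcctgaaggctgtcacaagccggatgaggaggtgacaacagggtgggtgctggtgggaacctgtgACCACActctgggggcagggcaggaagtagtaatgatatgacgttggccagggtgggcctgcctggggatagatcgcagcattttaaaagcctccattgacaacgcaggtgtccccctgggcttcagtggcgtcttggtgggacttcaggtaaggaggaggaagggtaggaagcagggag
Ncr1: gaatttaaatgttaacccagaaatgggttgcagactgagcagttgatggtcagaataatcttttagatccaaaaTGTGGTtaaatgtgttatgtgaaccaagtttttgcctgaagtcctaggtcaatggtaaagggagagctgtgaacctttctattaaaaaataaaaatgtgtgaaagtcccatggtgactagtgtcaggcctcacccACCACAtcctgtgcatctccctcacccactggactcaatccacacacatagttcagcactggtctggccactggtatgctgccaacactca
Cd3e: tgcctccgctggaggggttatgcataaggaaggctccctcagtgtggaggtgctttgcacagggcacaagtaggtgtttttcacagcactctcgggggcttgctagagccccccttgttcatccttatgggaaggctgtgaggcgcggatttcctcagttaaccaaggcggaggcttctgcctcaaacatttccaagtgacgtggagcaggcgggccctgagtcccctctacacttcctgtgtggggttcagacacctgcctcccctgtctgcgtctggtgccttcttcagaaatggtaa

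The RUNX core was present in each of the 4 granule and NK receptor windows. Counted from the start, its leftmost base lay at -50 in Gzma, at -93 and -34 in Gzmb, at -130 in Prf1 and at -176 and -41 in Ncr1. The Klrb1c window at chr6:128788592-128788891 also held a copy. The windows of Cd3e, Cd3g and Cd8a had no match. Of 32851 RefSeq promoter windows of this length, 16.8% held the core on either strand, and a match of 6 letters is a description and not a binding site. The E-box letters CAGGTG or CACCTG, present in 20.2% of all windows, occurred in Cd3e, Cd3g, Gzma and Prf1. The ETS core AGGAAG or CTTCCT, present in 35.4% of all windows, occurred in Cd3e, Prf1 and Klrb1c. The T-box core GGTGTGA or TCACACC, present in 4.0% of all windows, and the TATA box letters TATAAA or TTTATA, present in 13.6%, occurred in none of the windows read.

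Some mice stood apart from the rest in these genes, and they are described before the comparisons. Rag1, the recombinase that developing T cells use in the thymus, was at most 3.43 in 74 mice and above 3.5 in the other 5. The highest, the 1-day βENaC smoke female replicate 2, had a Rag1 level of 7.85, a Dntt level of 7.09 and an Arpp21 level of 5.86, and each of the 9 thymus markers examined was at its highest of all 79 mice in this animal. The same mouse also held the highest level of every T cell receptor and coreceptor gene. Its Cd3e level was 8.64, its Cd4 level 7.38, its Cd8a level 8.25 and its Cd8b1 level 8.89, whereas the highest Cd8b1 level in the 74 mice was 7.95. Its Gzma level of 8.20 and its Ncr1 level of 6.86 were near the middle of all mice, at rank 41 and rank 36. The granule and NK genes therefore did not share its high T cell level.

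Rag1 was also raised in the 1-day βENaC smoke female replicate 3, at 4.86, and in the 5-day WT sham male replicates 3, 4 and 5, at 4.32, 3.87 and 3.80. Dntt and Arpp21 were at rank 2 from the top in the βENaC mouse and at ranks 3 to 8 in these WT males. Foxn1, however, was at rank 17 in the βENaC mouse and at ranks 61, 52 and 76 in the WT males. Ptcra was at rank 50 and at ranks 77, 20 and 18. The name mice with thymus markers, used below for the 5, thus rests on Rag1 alone. At the other end stood the 5-day WT smoke female replicate 2. It had the lowest level of all 79 mice in Cd3e (6.30), Cd3g (6.45), Cd4 (4.57), Gzma (5.83), Gzmb (3.89), Prf1 (5.20) and Ncr1 (4.12), and also in Ptprc (8.87). Its Cd8b1 level of 6.20 was second to lowest. Its level of S100a8, a neutrophil gene, was 8.08, at rank 8 from the top. Most results that rest on these animals are given with and without them. The sizes of the exposure by sex terms and of the differences between durations are given in all mice only. So are differences within a single genotype or exposure, and correlations with genes outside the 9.

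**Figure D1:**
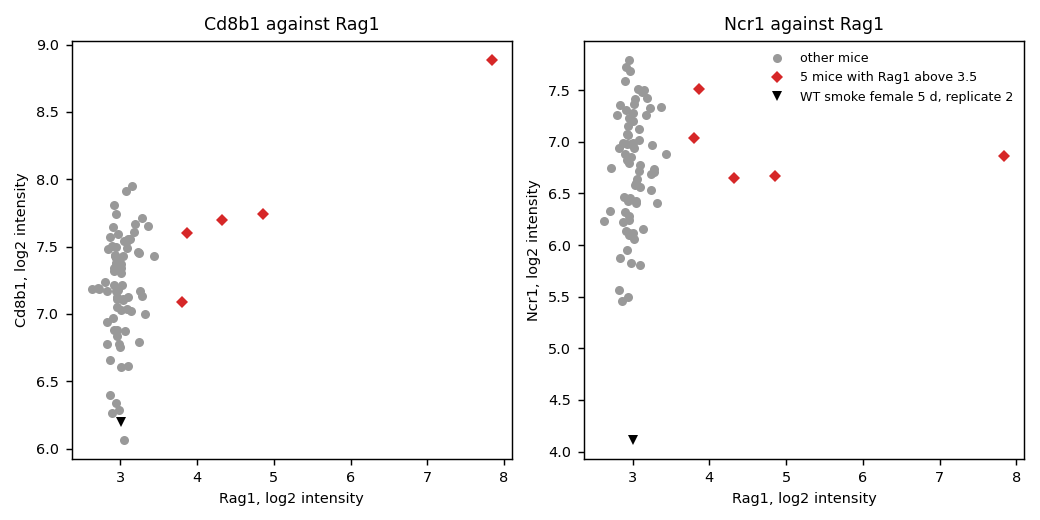
Log2 intensity of Cd8b1 (left) and of Ncr1 (right) on the vertical axes against log2 intensity of Rag1 on the horizontal axes, 1 point per mouse, with the 5 mice above a Rag1 level of 3.5 marked. The mouse with a Rag1 level of 7.85 has the highest Cd8b1 level, 8.89, but an Ncr1 level of 6.86 that lies within the range of the other mice.

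The 9 genes lay within the range of the array. The lowest level of Gzmb was below the array medians of 4.44 to 4.55, and that of Cd4 was close to them. Over the 79 mice, the lowest, median and highest levels were 6.30, 7.48 and 8.64 for Cd3e, the CD3 epsilon chain, and 6.45, 7.72 and 8.66 for Cd3g, the CD3 gamma chain. They were 4.57, 5.70 and 7.38 for Cd4, 4.91, 6.35 and 8.25 for Cd8a, and 6.07, 7.21 and 8.89 for Cd8b1. Gzma, the granzyme A gene, ranged from 5.83 through 8.23 to 9.42, and Gzmb, the granzyme B gene, from 3.89 through 5.32 to 6.79. Prf1 ranged from 5.20 through 6.20 to 7.22, and Ncr1 from 4.12 through 6.79 to 7.79. Levels of different genes are not set against each other, because each probe set has its own brightness. The spread between mice was wide. The standard error of a difference between groups of these sizes was 0.11 to 0.17 for the 9 genes at 1 day and 0.11 to 0.21 at 5 days, against a median of 0.05 over all genes at each duration.

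**Figure D2:**
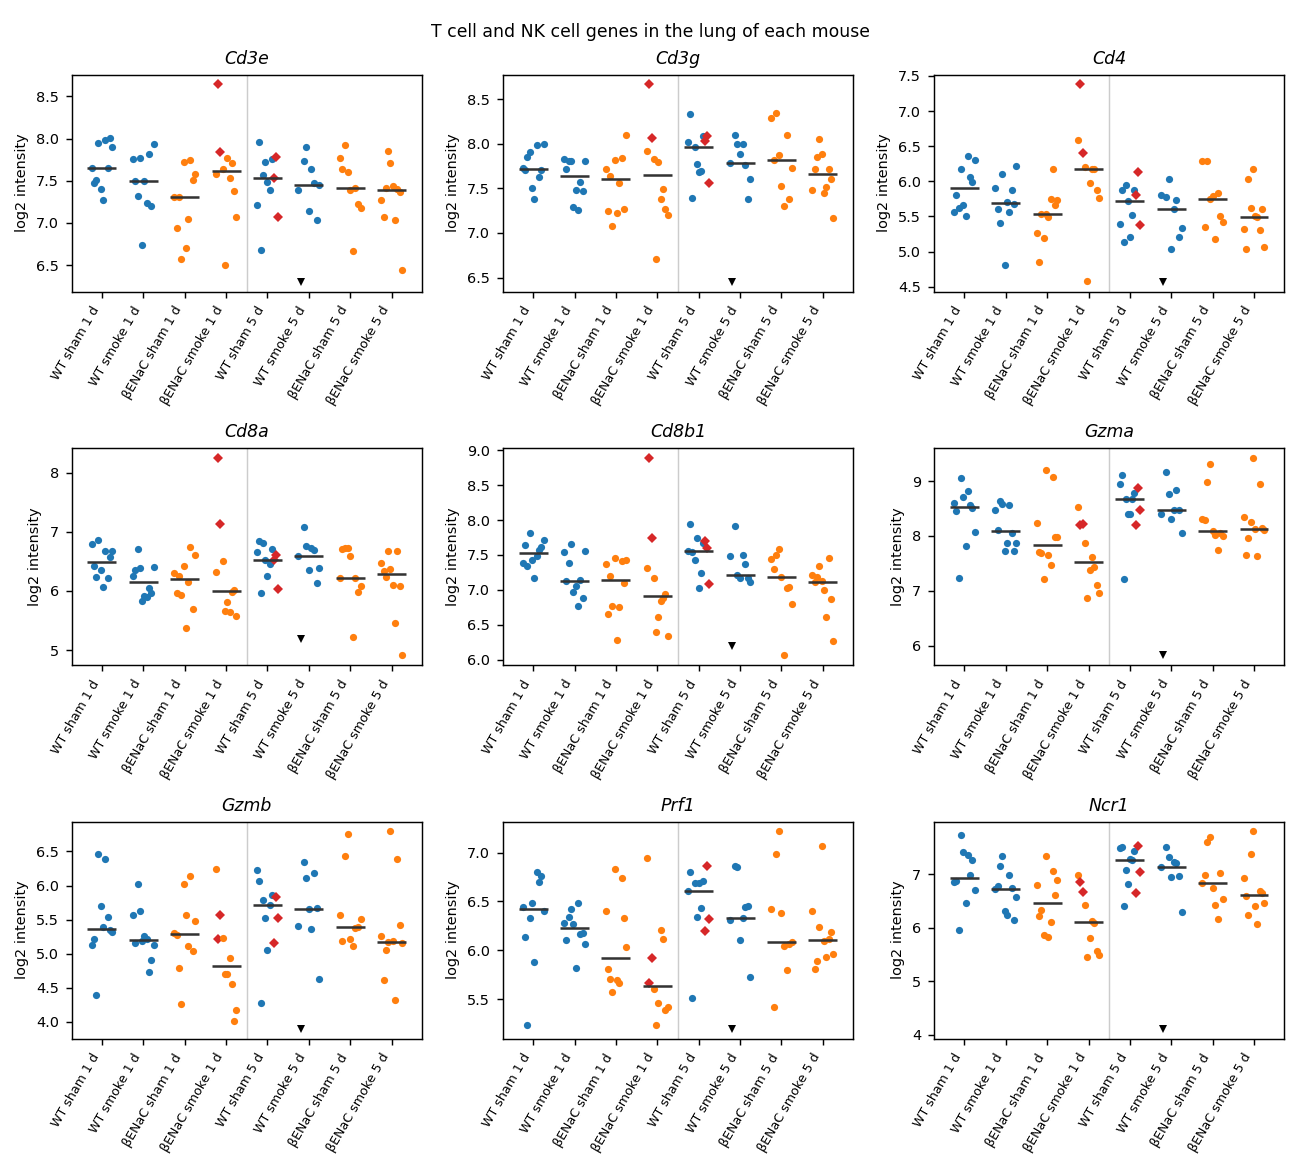
Log2 intensity (vertical axes) of the 9 genes, 1 panel per gene and 1 point per mouse, in the 8 combinations of genotype, exposure and duration, with both sexes together and bars at the group medians. Blue marks WT and orange βENaC mice, and red diamonds mark the 5 mice with Rag1 above 3.5, called mice with thymus markers by Rag1 alone. The black triangle is the 5-day WT smoke female replicate 2, which is lowest in 7 panels, and any 2 groups overlap in every panel.

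The genes fell into 2 sets by how they varied between mice of the same group. Each gene's group mean was subtracted, and the Pearson correlation of what remained was computed over the 79 mice as a description, since all values of a mouse come from the same piece of lung and the same array. Among the 5 T cell receptor and coreceptor genes the 10 correlations ran from 0.67 to 0.88, with a median of 0.81. The closest pair was Cd8a and Cd8b1, the 2 chains of the CD8 coreceptor, at 0.88, followed by Cd3e and Cd3g at 0.85. Among the 4 granule and NK genes the 6 correlations ran from 0.78 to 0.93, with a median of 0.83, and the closest pair was Gzma and Ncr1 at 0.93. Between the sets the 20 correlations were lower, from 0.37 to 0.66 with a median of 0.52. Cd8b1 and Ncr1, for example, correlated at 0.58.

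The same 2 sets were seen without the mice that stood apart. Without the 5 mice with thymus markers the T cell correlations were 0.58 to 0.83, the granule and NK correlations 0.78 to 0.92 and those between the sets 0.47 to 0.67. Without the 5-day WT smoke female replicate 2 the 3 ranges were 0.63 to 0.86, 0.75 to 0.90 and 0.28 to 0.60. Without the 5 mice the ranges overlapped at their ends, and the medians of the within-set correlations stayed above the median between the sets in each case.

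**Figure D3:**
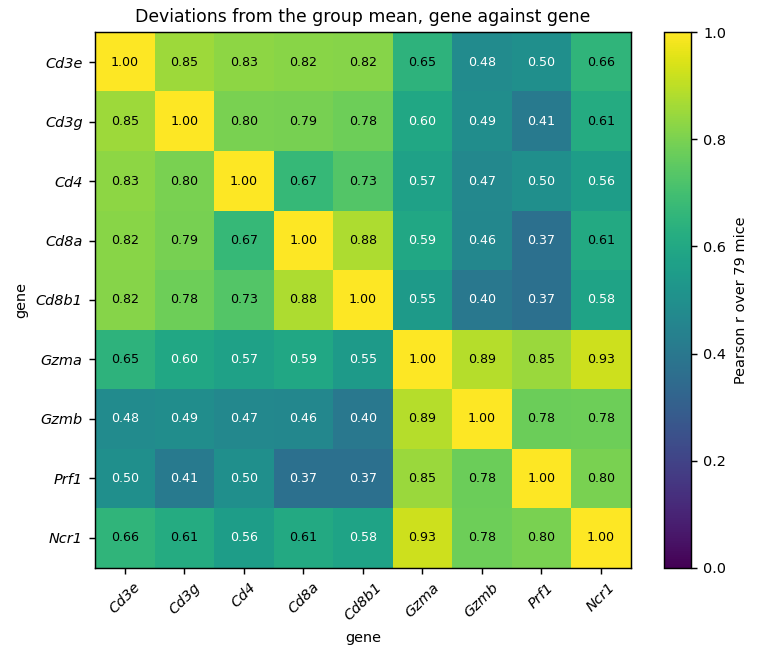
Pearson correlation (colour scale, no unit) between each pair of the 9 genes over the 79 mice after the mean of each of the 16 groups was subtracted. The 5 T cell genes form a block of 0.67 to 0.88 and the 4 granule and NK genes a block of 0.78 to 0.93, and the pairs between the blocks lie at 0.37 to 0.66.

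Among the genes most like Cd3e over all named genes were Cd3g (0.85), the kinase Lck (0.85), the adaptor Grap2 (0.84) and Cd4 (0.83). The genes most like Ncr1 were Gzma (0.93), the activating receptor Klrk1 (0.89), the chemokine Ccl5 (0.87), the granule protein Nkg7 (0.85) and Klra9 (0.84), 1 of a family of near-identical NK receptor genes whose probes may be shared. A B cell gene also moved with the T cell genes: Cd79a correlated at 0.80 with Cd3e and at 0.50 with Ncr1. The neutrophil gene S100a8 ran the other way, at -0.40 with Cd3e and -0.44 with Ncr1. Cd79a and S100a8 are single genes of their lists, and their correlations are given in all mice only. The 5-day WT smoke female replicate 2, lowest in Cd3e and Ncr1, was at rank 8 from the top in S100a8.

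The clearest difference between groups was a lower level of Ncr1 in βENaC mice of the 1-day study. Ncr1 was 5.95, 6.82 and 7.72 (lowest, median, highest) in the 20 WT mice and 5.46, 6.28 and 7.33 in the 20 βENaC mice. The groups overlapped widely, and the shift was seen over their whole range. In the fit with terms for genotype, exposure and sex, the βENaC minus WT difference was -0.50 ± 0.15 (SE), with a 95% interval of -0.80 to -0.21, which is 0.706 times the WT intensity (adjusted p = 0.0308, limma with Benjamini-Hochberg adjustment over all genes). The genotype coefficient is given here as βENaC minus WT, whereas the study coded it the other way. It was -0.46 among sham mice (adjusted p = 0.352) and -0.55 among smoke mice (adjusted p = 0.179), in contrasts that called 1.4% and 2.6% of all genes. In 1-day smoke males the groups did not overlap: the 5 βENaC males had Ncr1 levels of 5.49 to 6.12, and the 5 WT males 6.14 to 6.97. In the other 3 pairs of the same sex and exposure they overlapped, with 5.46 to 6.97 in βENaC and 6.32 to 7.33 in WT smoke females, 5.82 to 7.06 and 6.46 to 7.36 in sham males, and 5.87 to 7.33 and 5.95 to 7.72 in sham females. The share of all genes that separate such groups of 5 was not counted.

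Ncr1 was the only 1 of the 9 genes called at this duration, where an adjusted p under 0.05 was reached by 5.87% of all genes in either direction and by 2.29% in the lower direction. An ordinary linear model also called 1 of the 9. The Ncr1 call was close to its threshold. It was lost in 1 fit over all 79 mice (difference -0.50, adjusted p = 0.0714). It was also lost when the βENaC sham female replicate 2 (adjusted p = 0.0510), the βENaC sham male replicate 1 (0.0516), the βENaC smoke female replicate 5 (0.0516), the WT sham female replicate 4 (0.0501) or the WT smoke female replicate 4 (0.0505) was left out. Leaving out any of the 40 mice kept the difference between -0.57 and -0.46. Without the 5 mice with thymus markers it was -0.56 (adjusted p = 0.0187).

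The granule genes lay lower in the same mice without passing the adjusted threshold. Gzma was 7.24, 8.47 and 9.06 in WT and 6.87, 7.70 and 9.20 in βENaC mice at 1 day, a difference of -0.45 (interval -0.78 to -0.13, adjusted p = 0.0921). Prf1 was 5.23, 6.31 and 6.80 in WT and 5.24, 5.76 and 6.94 in βENaC mice, a difference of -0.33 (interval -0.59 to -0.06, adjusted p = 0.155). The medians of the groups lay apart for both genes, and the ranges overlapped, with nearly the same lowest and highest values in the case of Prf1. Gzmb differed by -0.27 (interval -0.60 to 0.07, adjusted p = 0.441), with medians of 5.29 in WT and 5.16 in βENaC mice. Single mice decided whether Gzma and Prf1 were called. Gzma passed without the βENaC sham female replicate 5 (-0.51, adjusted p = 0.0354), the βENaC sham male replicate 3 (-0.52, 0.0292) or the WT sham female replicate 3 (-0.53, 0.0237). Prf1 passed without the βENaC smoke female replicate 1 (-0.39, 0.0472) or the WT sham female replicate 3 (-0.39, 0.0438).

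After 5 days none of the NK and granule genes was called for genotype. Ncr1 was 4.12, 7.16 and 7.51 in the 20 WT mice and 6.06, 6.69 and 7.79 in the 19 βENaC mice, a difference of -0.12 with an interval of -0.52 to 0.28 (adjusted p = 0.789). Gzma differed by -0.10 (interval -0.51 to 0.31), Prf1 by -0.13 (interval -0.42 to 0.15) and Gzmb by -0.02 (interval -0.44 to 0.40). These intervals are wide and include differences of the size seen at 1 day. Whether the genotype difference changed between the durations was not tested. Without the 5-day WT smoke female replicate 2, which held the lowest Ncr1 level, the difference was -0.28 for Ncr1 (adjusted p = 0.186), -0.24 for Gzma, -0.20 for Prf1 and -0.11 for Gzmb.

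**Figure D4:**
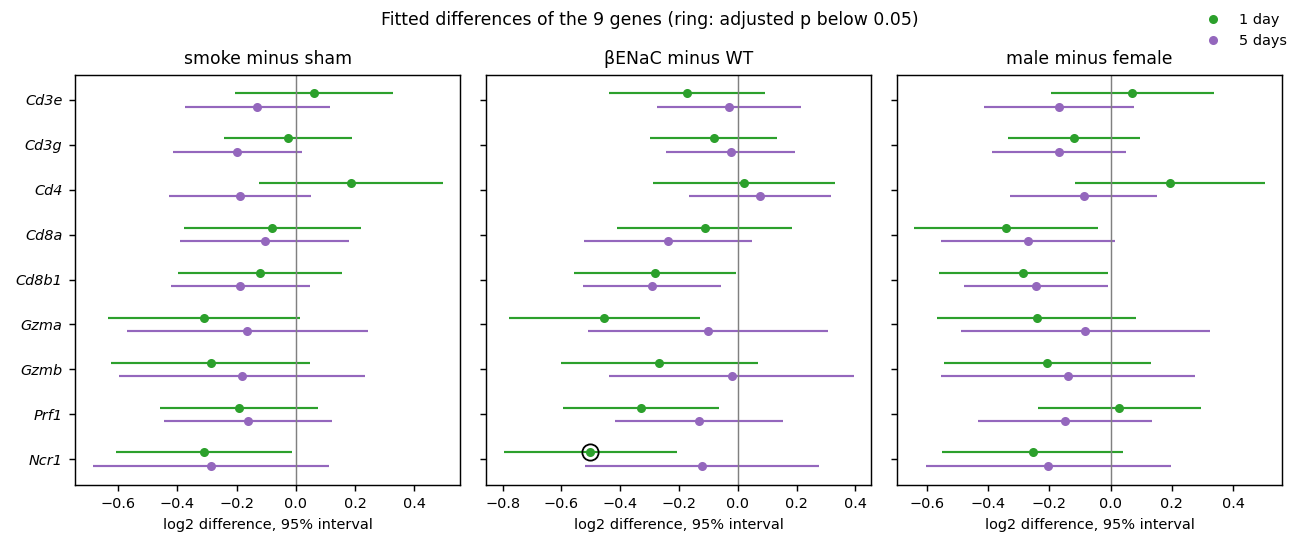
Differences in log2 intensity (horizontal axis, with 95% intervals) of the 9 genes for smoke minus sham, βENaC minus WT and male minus female, green at 1 day and purple at 5 days; a ring marks an adjusted p below 0.05. The ring stands at Ncr1 for genotype at 1 day (-0.50), and most other intervals include 0.

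Cd8b1, the CD8 beta chain, was the T cell gene with the largest genotype difference at both durations. At 1 day it was 6.78, 7.41 and 7.81 in WT and 6.29, 7.02 and 8.89 in βENaC mice, a difference of -0.28 (interval -0.56 to -0.01, adjusted p = 0.27). The highest βENaC value came from the mouse with the most Rag1. Without that mouse the difference was -0.38 (adjusted p = 0.0206), and without all 5 mice with thymus markers it was -0.43 (adjusted p = 0.00515). At 5 days Cd8b1 was 6.20, 7.46 and 7.95 in WT and 6.07, 7.13 and 7.59 in βENaC mice, a difference of -0.29 (interval -0.53 to -0.06, adjusted p = 0.109). The lowest WT value there came from the mouse that was low in nearly every lymphocyte gene, and without it the difference was -0.36 (adjusted p = 0.0128). With all mice of the 5-day study kept, array weights (-0.33, adjusted p = 0.0336) and the replicate number as a block (-0.33, adjusted p = 0.0462) also brought Cd8b1 past the threshold.

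The partner chain Cd8a differed by -0.11 at 1 day (interval -0.41 to 0.19) and by -0.24 at 5 days (interval -0.52 to 0.05, adjusted p = 0.34). Cd4 differed by 0.02 at 1 day (interval -0.29 to 0.33) and 0.08 at 5 days (interval -0.16 to 0.32), Cd3e by -0.17 and -0.03, and Cd3g by -0.08 and -0.02. Without the 5 mice with thymus markers the Cd4 difference at 1 day turned to -0.11, and that of Cd3g at 5 days to 0.0015. Those of Cd8a and Cd3e at 1 day were -0.28 each without these mice. In the fit without array weights or a block, no T cell gene was called for genotype with all mice of a study kept. At 5 days 0 of the 9 genes were called against 10.2% of all genes, with 1, Cd8b1, at an unadjusted p below 0.05 and 0 by the ordinary linear model.

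Over the 9 genes the median genotype difference was -0.27 at 1 day, with 8 of 9 negative, and -0.10 at 5 days, again with 8 of 9 negative. The median over all genes was 0.00 at 1 day and -0.01 at 5 days. The 9 genes move together between mice, so these counts are not 9 separate observations. B cell markers lay in the same direction. All 4 had a negative difference at each duration, with medians of -0.38 and -0.13, and 0 of 4 were called. Their summed intensity was 530.9 to 1973.1 with a median of 1311.1 in WT and 332.3 to 1420.8 with a median of 931.1 in βENaC mice at 1 day, and the medians were 1178.6 and 1054.0 at 5 days. The 5 pan-leukocyte genes had a median genotype difference of -0.08 at 1 day, where 0 were called, and 0.11 at 5 days, where Laptm5 rose by 0.38 (adjusted p = 6.73e-06). The part of these cells in the result was not tested.

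Smoke did not change any of the 9 genes past the threshold, although 9.45% of all genes were called at 1 day and 6.53% at 5 days. By the ordinary linear model the count was also 0 at each duration, and at an unadjusted p below 0.05 it was 1, Ncr1, at 1 day and 0 at 5 days. Ncr1 was 5.82, 6.83 and 7.72 in the 20 sham mice and 5.46, 6.50 and 7.33 in the 20 smoke mice at 1 day, a difference of -0.31 (interval -0.61 to -0.01, adjusted p = 0.204). At 5 days it was 6.16, 7.02 and 7.68 in sham and 4.12, 6.94 and 7.79 in smoke mice, a difference of -0.29 (interval -0.69 to 0.11, adjusted p = 0.492). Without the 5-day WT smoke female replicate 2 this difference was -0.12 (adjusted p = 0.735). Groups overlapped almost completely at both durations.

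The direction was shared by most of the genes. At 1 day the smoke minus sham difference was -0.31 for Gzma (interval -0.64 to 0.01), -0.29 for Gzmb (interval -0.62 to 0.05) and -0.19 for Prf1 (interval -0.46 to 0.07). The T cell genes lay nearer to 0 in all mice, at -0.03 for Cd3g, -0.08 for Cd8a, -0.12 for Cd8b1, 0.06 for Cd3e and 0.19 for Cd4, and without the 5 mice with thymus markers they were -0.12 for Cd3g, -0.25 for Cd8a, -0.26 for Cd8b1, -0.0445 for Cd3e and 0.0522 for Cd4. At 5 days all 9 differences were negative, from -0.11 for Cd8a to -0.29 for Ncr1, with a median of -0.18. Without the 5-day WT smoke female replicate 2, which was the lowest mouse in 7 of the genes, they lay between -0.13 for Cd4 and -0.0096 for Gzma, with a median of -0.0911. The median at 1 day was -0.12 in all mice and -0.25 without the 5 mice with thymus markers, and over all genes it was 0.01 at 1 day and -0.00 at 5 days. The intervals of Ncr1 and Gzma reach down to -0.57 or further at either duration, so the absence of a call does not show that the levels were equal.

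Several genes shared by many leukocytes fell with smoke, and they are given beside the result. Of the 5 pan-leukocyte genes, 4 were called lower at 1 day and 3 at 5 days, against 9.45% and 6.53% of all genes called in either direction. Itgal, an integrin chain of lymphocytes and other leukocytes, was 7.32, 7.99 and 8.70 in sham and 7.15, 7.54 and 8.02 in smoke mice at 1 day, and it fell by 0.46 (adjusted p = 1.3e-05) at 1 day and by 0.40 (adjusted p = 0.000258) at 5 days. Ptprc fell by 0.33 (adjusted p = 0.00105) and by 0.28 (adjusted p = 0.0197). Of the 6 monocyte genes 4 fell at each duration. Of the 4 neutrophil genes Retnlg fell at 1 day, by 0.66 (adjusted p = 0.0237). The 4 B cell genes all had negative smoke differences, with medians of -0.29 and -0.28, and 0 were called. The standard errors were 0.07 to 0.09 for the pan-leukocyte genes that fell, smaller than those of the T and NK cell genes. The part of these cells in the result was not tested.

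After 1 day the smoke difference of Cd4 was negative in WT and positive in βENaC mice, and neither was called. Among WT mice Cd4 was 5.50, 5.90 and 6.37 in the 10 sham mice and 4.81, 5.69 and 6.21 in the 10 smoke mice. Among βENaC mice it was 4.85, 5.54 and 6.18 in the 10 sham mice and 4.58, 6.17 and 7.38 in the 10 smoke mice, so that the median rose above that of every other group while the lowest mouse of the study was in the same group. The smoke difference was -0.22 in WT (adjusted p = 0.672) and 0.59 in βENaC mice (adjusted p = 0.0919), in contrasts that called 3.66% and 3.43% of all genes. The βENaC smoke mice included both 1-day mice with thymus markers, at Cd4 levels of 7.38 and 6.40. The differences within each genotype without them are not given. The exposure by genotype term was 0.81 with an interval of 0.25 to 1.37, and it did not pass the adjustment over all genes (unadjusted p = 0.00611, adjusted p = 0.634).

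Cd3e had a term of 0.53 (adjusted p = 0.708), Cd8a 0.46, Cd8b1 0.38 and Cd3g 0.22, and the 4 granule and NK genes had terms of -0.18 to -0.09. In all mice the T cell terms were thus positive and the granule and NK terms negative, as were the terms of 40.6% of all genes. The standard errors of the 9 terms were 0.21 to 0.32. The Ncr1 term ran from -0.18 to 0.0269 when 1 mouse was left out. None of the 9 was called, against 0.00638% of all genes, with 2, Cd3e and Cd4, at an unadjusted p below 0.05 and 0 by the ordinary linear model. Both 1-day mice with thymus markers were βENaC smoke females. Without the 5 mice the terms were 0.59 for Cd4, 0.34 for Cd3e, 0.14 for Cd8a, 0.11 for Cd8b1 and 0.0524 for Cd3g. Those of the granule and NK genes were then -0.29 to -0.16. At 5 days the terms for the 9 genes lay between -0.22 and 0.20, and 0 were called, with 0 at an unadjusted p below 0.05 and 0 by the ordinary linear model, against 0% of all genes.

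Levels were lower in males for most of the genes, again without a call. The male minus female difference at 1 day was -0.34 for Cd8a (interval -0.64 to -0.04, adjusted p = 0.151) and -0.28 for Cd8b1 (interval -0.56 to -0.01, adjusted p = 0.208). Both 1-day mice with thymus markers were females, and without the 5 such mice the differences were -0.17 for Cd8a (adjusted p = 0.316) and -0.14 for Cd8b1 (adjusted p = 0.43). At 5 days it was -0.27 for Cd8a (adjusted p = 0.476) and -0.24 for Cd8b1 (interval -0.48 to -0.01, adjusted p = 0.42). In females Cd8a was 5.66, 6.35 and 8.25 at 1 day and in males 5.37, 6.04 and 6.74, so the median was lower in males while the ranges overlapped. Of the 9 genes 0 were called for sex at 1 day, against 9.89% of all genes, and 0 at 5 days, against 0.616%. At an unadjusted p below 0.05 there were 2, Cd8a and Cd8b1, at 1 day and 1, Cd8b1, at 5 days, and the ordinary linear model called 0 at each. All 9 differences were negative at 5 days, with a median of -0.17, and 6 of 9 at 1 day, with a median of -0.21. The median at 1 day was -0.14 without the 5 mice with thymus markers. Without the 5-day WT smoke female replicate 2 the 9 differences at 5 days lay between -0.34 and -0.13, with a median of -0.22, and without the βENaC smoke female replicate 5 that of Gzma was -0.0132.

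Gzmb had the largest difference between the sexes in its response to smoke. At 1 day its medians in females were 5.21 in WT sham and 5.56 in WT smoke mice, and 5.27 in βENaC sham and 5.23 in βENaC smoke mice. In males they were 5.39 and 5.13 in WT and 5.48 and 4.56 in βENaC mice, sham before smoke. The 5 βENaC smoke males, at 4.00 to 4.93, lay below the 5 βENaC sham males, at 5.04 to 6.13. WT smoke males, at 4.72 to 5.25, lay below WT sham males, at 5.32 to 6.38, while sham and smoke females overlapped in both genotypes. Gzmb was named here for its large exposure by sex term, and these ranges restate the same values. How many of all genes separate such groups of 5 was not counted. The exposure by sex term was -0.97 (interval -1.58 to -0.36), and it failed the adjustment over all genes (unadjusted p = 0.00277, adjusted p = 0.592). All 9 genes, which move together between mice, had negative terms at 1 day, as did 47.5% of all genes. Both 1-day mice with thymus markers were smoke females, and the sizes of these terms without them are not given. Of the 9 genes 0 were called against 0.00638% of all genes, with 1 at an unadjusted p below 0.05 and 0 by the ordinary linear model. At 5 days 0 were called, with 0 at an unadjusted p below 0.05 and 0 by the ordinary linear model, and the Gzmb term was 0.17 (interval -0.68 to 1.02).

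The 2 durations were run on different mice. No gene of the 9 was called for the exposure by duration term, against 1.3% of all genes, with 0 at an unadjusted p below 0.05 and 0 by the ordinary linear model. The largest term was that of Cd4, -0.37 (interval -0.76 to 0.03, adjusted p = 0.455). Among smoke mice Cd4 was 4.58, 5.89 and 7.38 at 1 day and 4.57, 5.50 and 6.17 at 5 days, a difference of -0.41 for 5 days minus 1 day (adjusted p = 0.0538). The value of 7.38 came from the mouse with the most Rag1, and that of 4.57 from the 5-day WT smoke female replicate 2. The Cd4 term and difference without these mice are not given. Among sham mice the Cd4 difference was -0.04. The other 8 genes differed between the durations by -0.20 to 0.37 in smoke and by -0.02 to 0.27 in sham mice, and 0 of the 9 were called, against 8.47% and 0.297% of all genes. At an unadjusted p below 0.05 there was 1, Cd4, in smoke mice and 0 in sham mice.

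Some other genes of T cells were called for genotype, in both directions. They were taken from a list of 11 genes of T cell fate and homing. At 1 day 2 of the 11 were lower in βENaC mice and 0 were higher, against 5.87% of all genes called. Ccr7, the chemokine receptor that leads naive T cells into lymph nodes, fell by 0.31 (adjusted p = 0.0317), and Lef1, a transcription factor of naive T cells, fell by 0.35 (adjusted p = 0.0331). Ccr7 medians were 7.09 in WT and 6.88 in βENaC mice, and those of Lef1 were 7.18 and 6.91. The Ccr7 call was lost in 1 fit over all mice (adjusted p = 0.0601) and when any of 4 mice was left out, the βENaC sham male replicate 1 (adjusted p = 0.0548) or 2 (0.0569), the βENaC smoke male replicate 1 (0.0534) or the WT sham male replicate 3 (0.0548), and the Lef1 call when any of 7 mice was left out, with an adjusted p of at most 0.0589.

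At 5 days a different set of genes stood out, with 3 of the 11 higher and 1 lower in βENaC mice, against 10.2% of all genes called. Il2ra, the alpha chain of the interleukin 2 receptor, was 4.63, 4.97 and 5.32 in WT and 4.99, 5.33 and 6.39 in βENaC mice, a rise of 0.51 (adjusted p = 0.000349). Foxp3, the defining transcription factor of regulatory T cells, was 4.24, 4.62 and 5.02 in WT and 4.57, 4.88 and 5.87 in βENaC mice, a rise of 0.37 (adjusted p = 0.00676). Il7r, the interleukin 7 receptor of T cells and innate lymphoid cells, was 7.26, 8.26 and 8.45 in WT and 7.92, 8.53 and 9.65 in βENaC mice, a rise of 0.43 (adjusted p = 0.00608). In each of the 3 the highest βENaC mice lay above every WT mouse, and the lower parts of the groups overlapped. S1pr1, which lets lymphocytes leave tissue and which endothelium also expresses, fell by 0.21 (adjusted p = 0.00985).

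**Figure D5:**
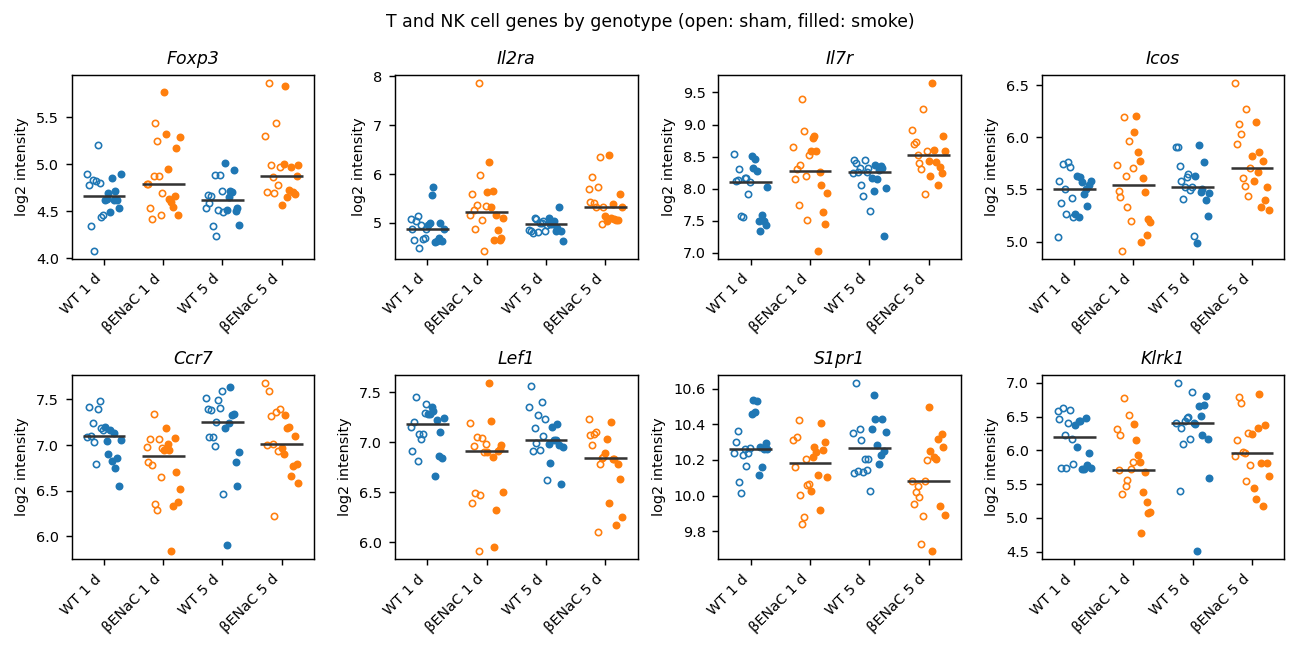
Log2 intensity (vertical axes) of Foxp3, Il2ra, Il7r, Icos, Ccr7, Lef1, S1pr1 and Klrk1 in WT and βENaC mice at 1 day and 5 days, 1 point per mouse, open for sham and filled for smoke. At 5 days Il2ra has medians of 4.97 in WT and 5.33 in βENaC mice, and S1pr1 has medians of 10.27 and 10.08.

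Markers of other cells that carry some of these genes differed as well. Il1rl1, the interleukin 33 receptor of group 2 innate lymphoid cells and of regulatory T cells, was higher in βENaC mice by 0.65 (adjusted p = 0.00273) at 1 day and by 0.63 (adjusted p = 0.00057) at 5 days, as the only 1 of 4 genes of that list called. Of 4 genes of conventional type 1 dendritic cells, 0 were called at 1 day and 3 were higher at 5 days, Itgae by 0.48 (adjusted p = 0.000837), Batf3 by 0.38 (0.0356) and Xcr1 by 0.35 (0.00848). Of 5 alveolar macrophage genes 3, Marco, Mrc1 and Chil3, were higher at each duration. Of all genes, 5.87% were called at 1 day and 10.2% at 5 days. Of 9 thymus markers 0 were called, and their summed intensity had medians of 104.0 in WT and 103.4 in βENaC mice at 1 day, with a highest value of 624.4 in the mouse described above. The part of these cells in the T cell gene results was not tested.

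Among 17 genes of T cell receptor signalling and costimulation, the genotype called 0 at 1 day and 1 at 5 days. That gene was Icos, an inducible costimulator, at 4.99, 5.52 and 5.93 in WT and 5.30, 5.71 and 6.52 in βENaC mice, a rise of 0.26 (adjusted p = 0.0293). The call was lost without the 5 mice with thymus markers (adjusted p = 0.0853), with array weights (0.0627) and without the βENaC sham female replicate 1 (0.0616), the βENaC sham male replicate 3 (0.0545), the βENaC smoke female replicate 3 (0.0525) or the WT sham male replicate 5 (0.0503). Of 17 measured NK receptor and NK transcription factor genes, Klrk1, which encodes the activating receptor NKG2D, fell at 1 day by 0.40 (adjusted p = 0.04), from 5.73, 6.20 and 6.62 in WT to 4.78, 5.72 and 6.77 in βENaC mice. Its call was lost with the ordinary linear model (adjusted p = 0.0544), in 1 fit over all mice (0.0839) and when any of 18 of the 40 mice was left out, with an adjusted p of at most 0.0669. At 5 days Sh2d1b1, an adaptor of NK cells, rose by 0.24 (adjusted p = 0.0141). The genotype comparison called 5.87% of all genes at 1 day and 10.2% at 5 days. The median difference of the 17 was -0.15 at 1 day and -0.08 at 5 days.

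Chemokine and cytokine genes that draw or support these cells formed a list of 10 measured genes. Cxcl10, a chemokine that attracts activated T cells, rose at 5 days by 0.52 (adjusted p = 0.000397), and Cxcr6, a receptor of lung-resident T cells, by 0.39 (adjusted p = 0.0166). The counts were 0 of 10 called at 1 day and 2 of 10 higher at 5 days, with 0 lower, against 5.87% and 10.2% of all genes called. Of 15 granule genes beyond the 9 members only Lyst, a regulator of lysosome size, was called, at 5 days, with a rise of 0.19 (adjusted p = 0.00871). The share of all genes called there was the same 10.2%. Of 3 measured genes linked to gamma delta T cells 0 were called for genotype.

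Few T cell genes outside the receptor complex were called for smoke. Cd2, an adhesion receptor of T and NK cells, fell by 0.23 at 1 day (adjusted p = 0.0327), as the only 1 of the 17 signalling genes called, against 9.45% of all genes. Its call was lost without the βENaC sham female replicate 5 (0.0527), the βENaC sham male replicate 5 (0.0539), the βENaC smoke female replicate 5 (0.0508) or the WT smoke female replicate 5 (0.0533). At 5 days 0 of the 17 were called, against 6.53% of all genes, although all 17 differences were negative, with a median of -0.13.

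Gata3, a transcription factor of T cells and group 2 innate lymphoid cells, rose by 0.20 at 1 day (adjusted p = 0.00786). It was the only 1 of the 11 fate and homing genes called for smoke at 1 day, and 0 of the 11 were called at 5 days, against the same shares of all genes.

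Among the NK list, Cd244, a receptor of NK cells and other leukocytes, fell at both durations. It was 6.29, 7.18 and 8.56 in sham and 6.30, 6.84 and 7.46 in smoke mice at 1 day, a fall of 0.48 (adjusted p = 0.0064), and it fell by 0.36 (adjusted p = 0.00277) at 5 days. Itga2, the DX5 antigen of NK cells, fell by 0.26 at 5 days (adjusted p = 0.0184), and its call was lost without the 5 mice with thymus markers (0.0549). Of the 17 genes the smoke difference was negative in 16 at 1 day and in 17 at 5 days, with medians of -0.13 and -0.11. In the recruitment list 0 of 10 were called at 1 day, and 2 fell at 5 days, Cx3cr1 by 0.49 (adjusted p = 0.000362) and Cxcl10 by 0.45 (adjusted p = 0.00266), a call that was lost in 1 fit over all mice (0.0739). Monocytes carry Cx3cr1 too, and several monocyte genes fell at the same time. The part of monocytes in the fall of Cx3cr1 was not tested. Stx11, a syntaxin of granule release, fell by 0.21 at 5 days (adjusted p = 0.00795), as the only 1 of the 15 granule genes called. The smoke comparison called 9.45% of all genes at 1 day and 6.53% at 5 days.

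Zbtb16, which encodes the factor PLZF of NKT cells and innate lymphocytes and is also expressed in other lung cells, was 6.42, 7.56 and 8.76 in sham and 6.51, 8.35 and 9.42 in smoke mice at 1 day, a rise of 0.80 (adjusted p = 0.0211). Of the 3 measured genes linked to gamma delta T cells it was the only 1 called for smoke at 1 day, against 9.45% of all genes. At 5 days Zbtb16 was lower in males by 1.23 (adjusted p = 0.00472). Sex changed few of the other list genes. At 1 day males had higher levels of Gata3, by 0.24 (adjusted p = 0.00103), of Sox13, by 0.25 (adjusted p = 0.00415), and of Unc13d, a granule priming factor, by 0.17 (adjusted p = 0.0345). The last call was lost with quantile normalization (adjusted p = 0.0657) and when any of 11 of the 40 mice was left out, with an adjusted p of at most 0.0551. At 5 days no T or NK cell list gene other than Zbtb16 was called for sex. The sex comparison called 9.89% of all genes at 1 day and 0.616% at 5 days.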

How the data were processed

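Whole-lung RNA (250 ng, mean RIN 9.1, lowest 7.4) from 79 mice was hybridized to 1 array each. Per the methods and the submitters' processing notes (Affymetrix Expression Console 1.4, Partek 6.6), the authors deposited log2 intensities made by RMA, with corrections for background, GC content and probe sequence, then quantile normalization and summary of probes by median polish. They removed 1 array as mislabelled. The genome build of the probe mapping is not given in the sources used here. The deposited values were used unchanged. Arrays carry no counts, so their number limits the precision. All columns of the table were used.

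Of 31350 genes, 21837 had a symbol, 21057 by their transcript identifier in the RefSeq gene table and 780 only through the paper's tables, whose comparison columns were not used. The members and gene lists were chosen with earlier results of these data known. Of the lists, 17 of 21 NK genes, 10 of 12 recruitment genes, 3 of 6 gamma delta genes, 4 of 5 neutrophil genes and 2 of 4 red cell genes were measured.

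Each duration was fitted in R 4.3.3 with limma 3.58.1 (lmFit, eBayes) on genotype, exposure and sex. Product terms with exposure were added in a second fit, combined genotype and exposure groups in another, and duration terms in a fit over all mice. P-values were two-sided and adjusted over all genes (Benjamini-Hochberg), and genes with an adjusted p below 0.05 were called. The genes named are the members, Scnn1b, the genes of the lists, and for Cd3e and Ncr1 the 5 named genes most like them. Some genes of the lists, left out of the list counts, and 1 gene most like Cd3e are not reported here. Input was read by data.table (version 1.17.8). Figures and motif searches used Python 3.11.15 with numpy 2.4.6, pandas 2.3.3 and matplotlib 3.10.9. The fit was tested on simulated data.

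The alternatives were the ordinary linear model of the methods, 1 fit over all mice, arrays centred on their median, quantile normalization, a filter that dropped the dimmest 30% of genes, array weights, a robust prior with a trend, a block for the replicate number, each mouse left out in turn and, chosen after the data were seen, omission of the 5 mice with Rag1 above 3.5. Replicate numbers did not pair the mice.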

Additional observations from a re-analysis of the deposited data

Results flagged for a closer look

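In 11 of the 144 combinations of a gene and a group, the lowest or highest mouse lay far from the others of its group by Dixon's test, and chance flags about 1 in 20 such groups. The 5-day WT smoke female replicate 2 was the lowest of its group in Ncr1 (4.12, next 6.94), Gzma (5.83, next 8.30) and Cd3g (6.45, next 7.79). The 5-day WT sham female replicate 3 was the lowest in Gzma (7.23, next 8.40) and Prf1 (5.51, next 6.34).

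The other 6 came from separate mice. Prf1 was lowest at 5.23 in the 1-day WT sham female replicate 3 (next 6.13) and at 5.73 in the 5-day WT smoke male replicate 5 (next 6.33). Gzma was lowest at 7.74 in the 5-day βENaC sham male replicate 3 (next 7.996), Cd8a at 6.22 in the 5-day βENaC sham female replicate 1 (next 6.72), and Cd3g at 7.29 in the 1-day WT smoke female replicate 5 (next 7.72). Gzmb was highest at 6.38 in the 1-day WT sham male replicate 2 (next 5.53).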

How the results depend on the processing

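Most results held their side of the threshold and their direction under the alternatives. The number of the 9 genes called for genotype at 1 day, 1 in all mice, was 0 in 1 fit over all mice and 2 without the 5 mice with thymus markers. It ran from 0 to 3 when 1 mouse was left out. At 5 days the number, 0 in all mice, was 1 with array weights and ran from 0 to 1 when 1 mouse was left out, the 1 being Cd8b1 without the WT smoke female replicate 2. Array weights gave Cd8b1 -0.33 (adjusted p = 0.0336). With the replicate number as a block the count at 5 days was 1, Cd8b1 at -0.33 (adjusted p = 0.0462). Mice that shared a number did not deviate together (mean correlation 0.01 over 266 pairs, and -0.00 over 1098 pairs of different numbers). All other member counts were 0 under each alternative.

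Differences near 0 changed sign. Without the 5 mice with thymus markers, Cd3e for smoke at 1 day was -0.0445, Cd4 for genotype at 1 day -0.11 and Cd3g for genotype at 5 days 0.0015. With quantile normalization Cd4 for genotype at 1 day was -0.0039 and Prf1 for sex at 1 day -0.0096. When 1 mouse was left out, the ranges for genotype were -0.0665 to 0.0889 for Cd4 at 1 day, and at 5 days -0.0928 to 0.0104 for Cd3e, -0.10 to 0.0035 for Cd3g and -0.11 to 0.0354 for Gzmb. For smoke at 1 day they were -0.0082 to 0.11 for Cd3e and -0.0838 to 0.0251 for Cd3g, for sex at 1 day -0.0335 to 0.0905 for Prf1, and for the exposure by genotype term at 1 day -0.18 to 0.0269 for Ncr1. The cause was not tested. The second-highest row per gene could not be tried, since each gene has 1 row.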

Other observations

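Red cell genes rose with smoke after 5 days, Slc4a1 by 1.89 (adjusted p = 1.28e-08) and Alas2 by 0.96 (adjusted p = 4.72e-08), as both measured genes of that list. Of 4 eosinophil genes 2 fell at the same time, against 6.53% of all genes called in either direction. Ccr3, the eotaxin receptor, was lower by 0.91 (adjusted p = 0.0219) and Il5ra by 0.36 (adjusted p = 0.0327). The others were not called, with differences of 0.03 for Epx (adjusted p = 0.63) and -0.18 for Prg2 (adjusted p = 0.762). Of the 4 genes of conventional type 1 dendritic cells, which present antigen to CD8 T cells, Xcr1 fell by 0.38 (adjusted p = 0.00649) and Clec9a by 0.28 (adjusted p = 0.0164) with smoke at 5 days. Of the 6 lung tissue genes Pecam1 and Cldn5, both of endothelium, fell with smoke at 5 days, by 0.11 (adjusted p = 0.013) and 0.15 (adjusted p = 0.022). Cd27, a costimulatory receptor of T cells, was lower by 0.41 at 5 days than at 1 day among smoke mice (adjusted p = 0.0288). That comparison called 8.47% of all genes, and the count of its list there is not given. The 1-day smoke mice held the mouse with the most Rag1, and the 5-day smoke mice the mouse lowest in Cd3e. The Cd27 difference without them is not given.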
